A study of Mus musculus with 4 samples.

Results

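The actin and cortical cytoskeleton machinery was followed in follicular helper T (TFH) cells that lack mTORC2. Its 50 genes were named by what their products are known to do, with earlier results of these arrays already known, and each was read by the brightest probe set (a group of probes for 1 transcript) that carries its symbol and no other. Such a probe set was found for 44 of the 50, out of 18193 genes on the array. *Twf1* and *Arpc1b* are read here only by probe sets that share a symbol with a second gene, and no probe set used here carries the symbols *Actr2*, *Arpc3*, *Diap1* or *Diap2* alone. The last of these are synonyms of *Diaph1* and *Diaph2*, which are given with the other genes of the pathway. TFH cells were sorted from the spleen at day 8 after infection of mice with the Armstrong strain of LCMV. The Rictor-null group (2 arrays) came from *Rictor* fl/fl mice with a *Cd4*-Cre transgene, which deletes *Rictor* in all cells that have passed through the *Cd4*-expressing stage of T cell development, and the WT group (2 arrays) from *Rictor* fl/fl littermates without Cre. Mice were 6 to 10 weeks old when infected, both sexes were used, and each array is labelled as a separate biological replicate. The series text gives at least 5 pooled mice per array, while a figure legend of the study gives other numbers of mice, and nothing settles the difference.

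Actin is held in cells as monomers and filaments. Profilin, cofilin and the thymosins handle the monomers, the Arp2/3 complex starts branches once WASP or WAVE proteins switch it on, formins and Ena/VASP proteins extend filaments, and capping protein stops them. Alpha-actinin, filamin and L-plastin bundle or cross-link the filaments, myosin pulls on them, and ERM proteins and talin tie them to the membrane and to integrins. T cells need this machinery to crawl and to build the contact zone with a B cell, and mTORC2, which is defined by its subunit Rictor, is best known outside metabolism for its role in actin organization.

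Values are intensities on a linear scale, and fold changes are differences of log2(intensity + 16) between Rictor-null and WT arrays. A gene is called lower or higher where its adjusted p from limma is under 0.05. The medians of the arrays nearly matched, and correlations on the log2 scale were 0.998 within both groups and 0.993 to 0.994 between groups (Pearson's r across probe sets). Only 2 pools a group were available, which sets the precision, and a p-value here reflects no more than the spread between pools. For each gene limma takes much of that spread from other genes of like signal. *Rictor* itself was at 267 and 279 on the Rictor-null and 334 and 303 on the WT arrays in its brightest probe set (log2 fold change -0.21, adjusted p = 0.0366 from limma), and its other probe sets lay between -0.03 and 0.11 on the log2 scale. The sources used here do not say which exons they cover, so this does not check the deletion. Fewer cells of a type and less RNA per cell cannot be told apart in sorted bulk samples.

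Most of the cytoskeleton genes that changed were lower in Rictor-null TFH cells, by small amounts. Of 44 measured, 21 were lower and 4 were higher (adjusted p from limma), and 19 did not pass. Among all genes tested 7.19% were lower and 12.5% were higher. The median log2 fold change was -0.16 over the 44 genes and 0.0068 over all genes. Values lay below 0 for 33 of the 44 genes and for 8558 of all 18193 genes. Since bright probe sets pass more often, the same counts were read among genes with a mean intensity of at least 500, a limit chosen after the values were seen. There, 20 of 34 cytoskeleton genes were lower and 2 higher, against 25.7% lower and 30.2% higher of all 1974 such genes, whose median was 0.012. Both Rictor-null arrays lay below both WT arrays for 29 of the 44 genes and above them for 10, against 24.9% and 30.6% of all genes. The counts fell with a WT array left out, as did those over all genes. The median of the 44 genes was then -0.115 without WT replicate 1 and -0.165 without WT replicate 2. A call that ended therefore need not mean a smaller change. Without WT replicate 1 only 5 genes were lower and 3 higher (2.51% and 5.52% of all genes), and without WT replicate 2 they were 10 and 2 (2.72% and 5.11% of all genes). *Myh9*, *Wipf1*, *Vasp* and *Myl4* were called in the same direction by every limma fit that was tried. *Capza2* and *Actn1* also kept their calls with any array left out, and the other 19 calls ended with at least 1 array left out. Those of *Pfn1*, *Was*, *Wasf2* and *Lcp1* ended without WT replicate 1, those of *Actg1* and *Tpm4* without WT replicate 2, and those of *Actr3*, *Capzb*, *Actn4*, *Ezr* and *Msn* with either WT array left out. The calls of *Hcls1* and *Evl* ended with either WT array or Rictor-null replicate 1 left out.

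**Figure D1:**
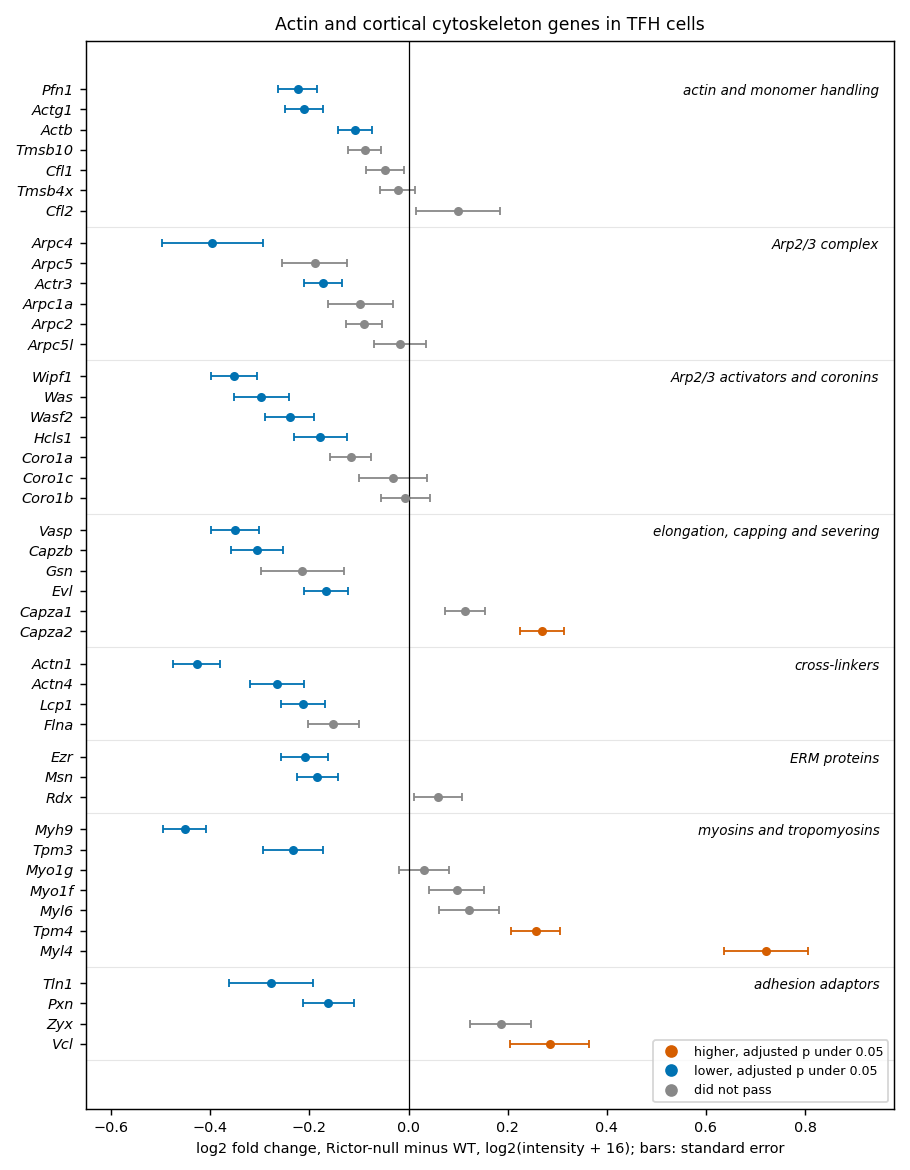
Log2 fold change of the 44 measured cytoskeleton genes, Rictor-null minus WT TFH cells (x axis, log2 of intensity + 16), 1 gene per row and grouped by role. Points are fitted values from limma with standard error bars, blue for the 21 lower genes, orange for the 4 higher genes and grey for the 19 that did not pass, and all Arp2/3, activator, coronin and cross-linker genes lie left of 0.

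**Figure D2:**
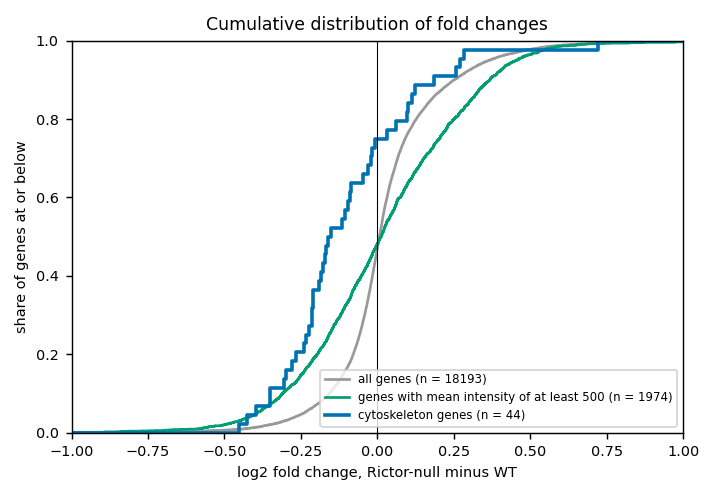
Cumulative share of genes (y axis) at or below a log2 fold change, Rictor-null minus WT (x axis), for the 44 cytoskeleton genes (blue), the 1974 genes with a mean intensity of at least 500 (green) and all 18193 genes (grey). The blue curve crosses the middle at -0.16, the other curves near 0.

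Many actin genes are transcribed under serum response factor (SRF), which binds a short element called the CArG box together with the MRTF coactivators, themselves released by polymerizing actin, or with the Elk factors. The box was looked for in the promoter sequences of RefSeq (build GRCm38.p6, 250 bases before to 50 after each gene start), and reads the same way on both strands. It was found in 4 of the 40 measured cytoskeleton genes with an entry there, against 1.81% of 27025 genes. The stretches that hold it are shown because they belong to genes that moved in different directions, with the box in capitals.
Actg1: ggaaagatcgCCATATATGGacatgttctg
Vcl: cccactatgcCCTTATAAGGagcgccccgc
Arpc4: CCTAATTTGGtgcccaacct
Myl6: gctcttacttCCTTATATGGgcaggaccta
The *Actg1* stretch is chr11:120348566-120348595 on the minus strand, and its box begins 90 bases before the gene start. That of *Vcl* is chr14:20929161-20929190 on the plus strand (box 227 bases before), that of *Arpc4* chr6:113377863-113377882 on the plus strand (box 250 bases before) and that of *Myl6* chr10:128493040-128493069 on the minus strand (box 50 bases before). *Actg1* and *Arpc4* were lower in Rictor-null TFH cells, *Vcl* was higher and *Myl6* did not pass. A match is a description of the sequence and not a measured site. Of the factors themselves, listed as *Srf*, *Mrtfa*, *Mrtfb*, *Elk1*, *Elk3* and *Elk4*, 3 of 6 were lower, against 7.19% of all genes. *Srf* was at 249 and 232 on the Rictor-null and 286 and 283 on the WT arrays, with a log2 fold change of -0.23 (adjusted p = 0.0186 from limma). The other *Srf* probe set, also above the array median, was at only -0.04. *Elk4* fell by 0.44 and *Elk3* by 0.35 on the log2 scale, while *Mrtfa* at -0.12, *Mrtfb* at -0.17 and *Elk1* at -0.020 did not pass. For *Elk3*, *Elk4* and *Mrtfb*, other probe sets above the median of the array did not all move this way.

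Actin itself and its monomer carrier profilin were lower. *Actg1*, the gene of cytoplasmic gamma-actin, was at an intensity of 6555 and 6878 on the Rictor-null arrays and 7703 and 7851 on the WT arrays. *Pfn1*, encoding profilin, was at 4399 and 4448 against 5295 and 5045. Their log2 fold changes were -0.21 (standard error 0.04, adjusted p = 0.00165 from limma) and -0.22 (standard error 0.04, adjusted p = 0.00136 from limma). *Actb*, the beta-actin gene often taken as a constant reference, was at 11116 and 11157 against 11828 and 12173, a log2 fold change of -0.11 that passed narrowly (adjusted p = 0.0463 from limma) and not with any of the 4 arrays left out. The thymosin beta-4 and cofilin genes did not pass. *Tmsb4x*, which encodes thymosin beta-4, was at 11451 and 11080.0 against 11372 and 11499, with the groups overlapping, and the cofilin genes *Cfl1* and *Cfl2* had log2 fold changes of -0.05 and 0.10 that did not pass. *Tmsb10*, the other thymosin gene, read 13933 on both WT arrays, the highest intensity found on either of them, and 13186 and 13033 on the Rictor-null arrays. At the top of the scale a difference may be understated, and the log2 fold change of this probe set (-0.09) was the smallest of the 3 above the array median, of which the others were at -0.17 and -0.28.

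The Arp2/3 complex was read by 6 of its 9 listed genes. All 6 had values below 0, as did 8558 of all 18193 genes. Only *Actr3* and *Arpc4* were called lower, against 7.19% of all genes. *Actr3*, which encodes the actin-like subunit Arp3, was at 3103 and 3136 on the Rictor-null arrays and 3538 and 3497 on the WT arrays, and all of its 3 probe sets were lower, by -0.27 to -0.17 on the log2 scale. *Arpc4* was at 790.2 and 1074 against 1165 and 1272, with Rictor-null replicate 1 far below replicate 2. The difference of -0.40 (standard error 0.10, adjusted p = 0.015 from limma) on the log2 scale was -0.18 without Rictor-null replicate 1, and the call ended without that array or either WT array. The subunit genes *Arpc5*, *Arpc1a* and *Arpc2* were at -0.19, -0.10 and -0.09 and did not pass. *Arpc5l*, which encodes an alternative form of the Arpc5 subunit, was at 1833 and 1727 against 1720 and 1887, so that the groups overlapped.

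Of 7 genes listed as activators of Arp2/3 or their partners, or as coronins, 4 were lower and 3 did not pass. Among all genes 7.19% were lower, and 25.7% of those with a mean intensity of at least 500. The 4 lower genes were *Wipf1*, *Was*, *Wasf2* and *Hcls1*. The 3 others were coronin genes, whose products help to dismantle branches. *Wipf1* encodes WIP, the partner that stabilizes WASP, and was at 979 and 1018 on the Rictor-null arrays and 1281 and 1276 on the WT arrays. *Was*, encoding WASP, which links the T cell receptor to actin, was at 649.9 and 605 against 802 and 747. *Wasf2*, which encodes the WAVE2 protein that drives lamellipodia, was at 1085 and 1063 against 1317 and 1226. The log2 fold changes of these 3 genes were -0.35, -0.30 and -0.24 (adjusted p of 0.000142, 0.00211 and 0.00366 from limma). *Hcls1*, the cortactin homologue of blood cells, fell by 0.18 on the log2 scale. *Coro1a*, the main coronin gene of lymphocytes, was at -0.12 and did not pass (adjusted p = 0.0704 from limma), and *Coro1b* and *Coro1c* were at -0.0066 and -0.03 with overlapping groups.

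Of 6 measured genes of elongation, capping and severing, 3 were lower and 1 higher, against 7.19% and 12.5% of all genes. The elongation genes *Vasp* and *Evl* were lower, while capping genes had values on both sides of 0. *Vasp* encodes an elongation factor at the leading edge and was at 1045 and 1088 on the Rictor-null arrays and 1324 and 1405 on the WT arrays. Its log2 fold change was -0.35 (standard error 0.05, adjusted p = 0.000233 from limma). *Evl*, its relative in the Ena/VASP family, fell by 0.17, and its 4 probe sets all had values below 0. Capping protein is an obligate dimer of an alpha and a beta chain, and the genes of the chains went opposite ways. *Capzb*, the beta chain gene, was at 1565 and 1752 against 2030 and 2068. *Capza2*, an alpha chain gene, was at 1548 and 1511 against 1283 and 1250.

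The log2 fold changes were -0.31 (standard error 0.05, adjusted p = 0.0012 from limma) for *Capzb* and 0.27 (standard error 0.04, adjusted p = 0.000795 from limma) for *Capza2*. The probe sets above the array median had the same sign within each gene, 3 for *Capzb* and 2 for *Capza2*. *Capza1*, the other alpha chain gene, was at 0.11 (adjusted p = 0.0713 from limma), and *Gsn*, encoding the severing protein gelsolin, at -0.21 (adjusted p = 0.102 from limma).

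Filament cross-linkers were the role in which the largest share was called lower, 3 of 4. *Actn1*, encoding the alpha-actinin that anchors filaments at adhesions, was at 741 and 726 on the Rictor-null and 976 and 1007 on the WT arrays. The log2 fold change was -0.43 (standard error 0.05, adjusted p = 5.02e-05 from limma). *Actn4*, the second non-muscle alpha-actinin gene, was at 847 and 774 against 1006 and 947, and *Lcp1*, which encodes the leukocyte bundling protein L-plastin, at 2176 and 2216 against 2636 and 2462. *Flna*, the filamin A gene, had groups apart at 704 and 678 against 795 and 744, but at -0.15 it did not pass (adjusted p = 0.061 from limma).

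ERM proteins link the cortex to membrane proteins and must be released when a T cell polarizes. *Msn*, encoding moesin, was at 1837 and 1876 on the Rictor-null arrays and 2116 and 2106 on the WT arrays, and *Ezr*, encoding ezrin, at 828 and 805 against 930.1 and 963. Both were lower, by 0.18 and 0.21 on the log2 scale in size, and both calls ended with either WT array left out. *Rdx*, the radixin gene, was at 715 and 722 against 686 and 692, a log2 fold change of 0.06 that did not pass, and its 3 probe sets were not all on the same side of 0.

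Myosin and tropomyosin genes held the largest fall and the largest rise. *Myh9* encodes the heavy chain of non-muscle myosin IIA, the motor that contracts the T cell cortex. It was at 3752 and 3550.0 on the Rictor-null arrays and 5109 and 4889 on the WT arrays. The log2 fold change was -0.45 (standard error 0.04, adjusted p = 1.65e-05 from limma). Of its other 4 probe sets 3 were also lower, at -0.54 to -0.29, and the dimmest was at -0.04. Of the light chain genes, *Myl6* was not lower, at 233 and 229 against 213 and 208, a log2 fold change of 0.12 that did not pass. *Myl12a* at -0.11 and *Myl12b* at -0.03, from the list of other actin-binding genes and far brighter, did not pass either. *Myl4*, a light chain gene known from atrial and embryonic muscle, was at 54.1 and 47.5 against 24.0 and 24.9. This was the largest change of all 44 genes, at 0.72 on the log2 scale (standard error 0.08, adjusted p = 7.46e-05 from limma), in a probe set little above the array median of 20.1, where the fold is understated by the added 16. The ratio of linear means was 2.07.

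The tropomyosin genes, whose products coat filaments and set which myosin can bind, had values on both sides of 0. *Tpm3* was at 2878 and 3162 on the Rictor-null arrays and 3786 and 3323 on the WT arrays. *Tpm4* was at 1298 and 1351 against 1144 and 1069. Their log2 fold changes were -0.23 (adjusted p = 0.016 from limma) and 0.26 (adjusted p = 0.00246 from limma), and 2 dimmer probe sets of *Tpm3* lay above 0, the higher at 0.22. The *Tpm3* call ended without WT replicate 1, when the value was -0.14, and without Rictor-null replicate 1, and the *Tpm4* call ended without WT replicate 2. The class I myosin genes of leukocytes, *Myo1f* at 0.10 and *Myo1g* at 0.03, did not pass.

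Adaptors that connect integrins to actin also lay on both sides of 0, and none of their calls held with each array left out. *Tln1*, the talin gene, was at 404 and 432 on the Rictor-null arrays and 572 and 454 on the WT arrays, with the WT arrays far apart. Its call (log2 fold change -0.28, adjusted p = 0.0369 from limma) ended without WT replicate 1, when the value was -0.12, and without Rictor-null replicate 1. *Pxn*, encoding the scaffold paxillin, fell by 0.16, a call that ended with either WT array or Rictor-null replicate 2 left out. *Vcl*, which encodes vinculin, the protein recruited to stretched talin, was higher at 94.8 and 98.1 against 79.1 and 73.6, a log2 fold change of 0.28 (adjusted p = 0.0225 from limma) that did not pass with any of the 4 arrays left out. *Zyx*, encoding zyxin, was at 262 and 245 against 222 and 220.1 with the groups apart, but did not pass (log2 fold change 0.19, adjusted p = 0.0544 from limma).

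**Figure D3:**
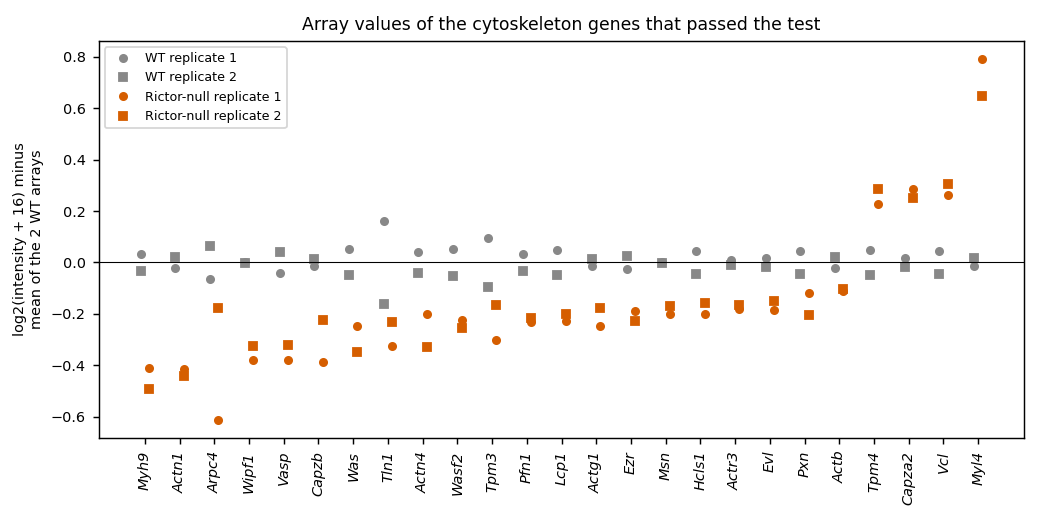
Array values of the 25 cytoskeleton genes that passed the test, as log2(intensity + 16) minus the mean of the 2 WT arrays (y axis), genes ordered by fold change (x axis), circles for replicate 1 and squares for replicate 2. The WT arrays (grey) and Rictor-null arrays (orange) do not overlap in any of them, which follows largely from picking them by a test on the same arrays. Among all genes, both Rictor-null arrays lay below both WT arrays for 24.9% and above them for 30.6%. *Arpc4* and *Tln1* show the widest gaps between replicates of a group.

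Probe sets of a gene mostly had the same sign. Of the 44 genes, 28 had more than 1 probe set above the array median, and in 23 of these all such probe sets had the same sign. The 5 exceptions were *Cfl1*, *Cfl2*, *Rdx*, *Tpm3* and *Tln1*. Averaging all probe sets of a gene, dim ones included, left 10 genes lower and 2 higher, against 4.63% and 9.88% of all genes. The probe sets of *Actg1*, *Cfl1*, *Tmsb10*, *Coro1c*, *Gsn*, *Myh9* and *Pxn* carry the manufacturer's suffix for probes that may also match other transcripts, which applies to 3 of the 25 calls.

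**Figure D4:**
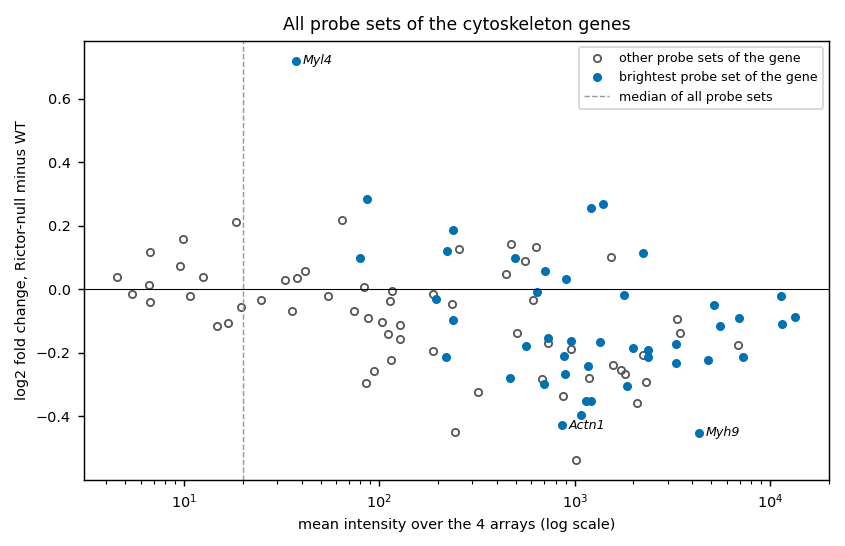
Log2 fold change, Rictor-null minus WT (y axis), against mean intensity over the 4 arrays on a log scale (x axis) for all 104 probe sets of the cytoskeleton genes. Filled points are the brightest probe set of each gene, open points the others, and the dashed line is the median of all probe sets at 20.1, below which fold changes crowd around 0.

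Another 69 measured genes, listed beside the cytoskeleton genes, bind actin or organize it. Here 17 were lower and 12 higher, which is 24.6% and 17.4% against 7.19% and 12.5% of all genes, and the median was -0.04. Bright probe sets pass more often, and 56 of the 69 genes lay above the array median. With genes below it left out, 21 were lower and 9 higher, against 13.9% and 23.2% of all 10714 such genes. Among all genes with a mean intensity of at least 500 the shares were 25.7% and 30.2%. For the full list of 69, the dependence on single arrays was as follows. Left without WT replicate 1 the counts were 6 and 3 (2.51% and 5.52% of all genes), without WT replicate 2 they were 8 and 3 (2.72% and 5.11% of all genes), and without Rictor-null replicate 1 they were 15 and 6 (5.76% and 9.42% of all genes), so that the share higher was then below that of all genes. *Coro2b*, a coronin gene better known from neurons, was at 263 and 258 on the Rictor-null arrays and 631 and 600.1 on the WT arrays, with a log2 fold change of -1.19. *Cotl1*, which encodes a coactosin-like protein that competes with cofilin, was at 2859 and 3083 against 4359 and 4257 and its 6 probe sets had log2 fold changes of -0.57 to -0.43. *Lpp*, a zyxin relative, fell by 0.48, although its 8 probe sets above the array median ran from -0.89 to 0.27. *Coro2a*, a further coronin gene, was higher at 78.5 and 60.7 against 42.2 and 43.3. *Diaph1*, the gene of the formin mDia1, was at 849.8 and 844 against 1134 and 1129 (log2 fold change -0.41), and *Diaph2* at 0.02 did not pass. Of 8 protein kinase C genes, a family that mTORC2 phosphorylates, *Prkca*, *Prkcb* and *Prkcq* were lower, by 0.33, 0.26 and 0.14 in size. None was higher, and among all genes 7.19% were lower and 12.5% higher.

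**Figure D5:**
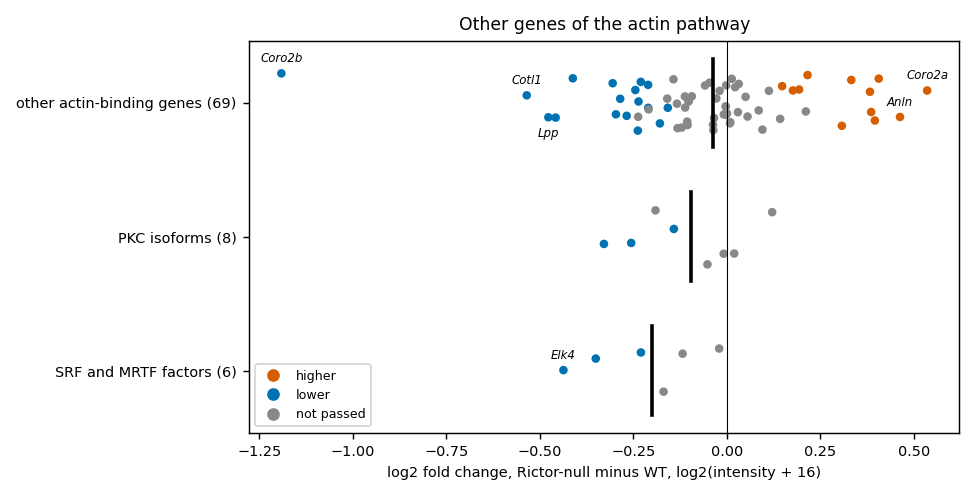
Log2 fold change, Rictor-null minus WT (x axis), of other genes of the actin pathway, 1 row per list with the number of measured genes in brackets. Points are genes (blue lower, orange higher, grey not passed) and black bars are list medians, which lie at -0.04, -0.10 and -0.20 from top to bottom.

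Of the marker lists read beside the cytoskeleton genes, only that of CD4 T and TFH cells held lower genes. The counts of each list stand against 7.19% lower and 12.5% higher among all genes tested. All 9 measured markers of CD4 T and TFH cells lay above the array median, and 6 of them were lower in Rictor-null TFH cells and none higher. The falls were 0.94 for *Bcl6*, 0.90 for *Il21*, 0.70 for *Cxcr5*, 0.55 for *Pdcd1*, 0.32 for *Cd3e* and 0.26 for *Cd4* in size on the log2 scale, while *Icos* at 0.0033, *Cd200* at 0.08 and *Sh2d1a* at 0.11 did not pass. All 9 measured genes of cycling cells were higher, with a summed intensity of 2934 to 2971 on the Rictor-null and 2004 to 2065 on the WT arrays. *Top2a*, the brightest of them, was at 831 and 835 against 633 and 607. Of 14 myeloid markers 5 were higher, none was lower and 9 did not pass (summed intensity 1198 to 1297 against 913 to 954). *Lyz2* and *Cst3* were higher, with log2 fold changes of 0.77 and 0.47, while *Cd68* at 0.08 did not pass. Of 10 B and plasma cell markers 3 were higher, none was lower and 7 did not pass (3251 to 3332 against 2968 to 3009). *Jchain* was higher, at 378 and 353 against 126 and 113. *Ighm*, which makes up most of this sum, was at 2750 and 2864 against 2782 and 2754 and did not pass. Its 6 probe sets above the array median ran from 0.02 to 1.04. Of 5 CD8 and NK markers 2 were higher (205 to 234 against 144 to 153), *Cd8b1* and *Klre1*, while *Cd8a* at 0.0035 did not pass. Of 4 erythroid markers 1 was higher (61.5 to 62.9 against 52.8 on both WT arrays), *Alas2*, which lay below the array median. Of 8 platelet markers none passed (159.9 to 165 against 152 to 157). Below the array median lay 4 of the myeloid, 7 of the B and plasma cell, 2 of the CD8 and NK, 3 of the erythroid and 4 of the platelet markers. The part of these groups in the values of the cytoskeleton genes was not tested.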

How the data were processed

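Total RNA of sorted cells was labelled and hybridised to 1-colour Affymetrix mouse arrays. For 45037 probe sets, linear intensities were deposited by the authors, with array medians that nearly match. The submitters' processing notes name MAS5 and RMA without saying which made the values. Of the probe sets, 34945 carry 1 gene symbol in the platform annotation, 932 several and 9160 none there, and only the first kind named a gene. Symbols were checked by Entrez number against RefSeq (34741 found, 0 changed), and 2 listed genes were found under newer symbols. Groups and replicate numbers came from the sample titles. The groups were compared in limma 3.58.1 (R 4.3.3) on log2(intensity + 16), a scale that understates changes of dim genes, with lmFit, eBayes with a trend in mean signal, and Benjamini-Hochberg adjustment over 18193 genes. The steps were tested on simulated data. Called genes with a log2 change of at least 0.25, the smallest p of each role and up to 4 called genes per pathway list were named, and others are named to account for every member or for what they are known to do. The cytoskeleton genes and lists were chosen with earlier results of these data known. Alternatives were median centring, quantile normalization, a pseudocount of 1, leaving out probe sets below the median, the mean of all probe sets, adjustment over all probe sets, any probe set, no trend, a replicate block, leaving out each array and the methods' t-test. A crossed block and the brighter background were added after the data were seen. One further list of genes of the pathway is not reported here.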

Additional observations from a re-analysis of the deposited data

How the results depend on the processing

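No called cytoskeleton gene changed direction under any alternative, but many calls were lost. With an array left out, the cytoskeleton genes ran from 5 to 21 lower and 2 to 4 higher, other actin-binding genes from 6 to 15 lower and 3 to 10 higher, and the median of the cytoskeleton genes from -0.17 to -0.12. The lone array of a group is then assumed to vary like the others. Of the 25 calls, 8 remained without WT replicate 1, 12 without WT replicate 2, 18 without Rictor-null replicate 1 and 22 without Rictor-null replicate 2. With the mean of all probe sets 10 cytoskeleton genes were lower and 2 higher, with a median of -0.11, and 7 of 69 other actin-binding genes were higher (9.88% of all genes). Without the trend 14 cytoskeleton genes were lower (6.37% of all genes), and with median centring 25 (8.44% of all genes). Adjusted over all probe sets, 11 other actin-binding genes were lower (5.42% of all genes). By the methods' t-test (one-tailed, unpaired) 0 genes of these lists passed after Benjamini-Hochberg adjustment, as did only 0.0165% of all genes in each direction, so that this outcome says nothing about these lists. Unadjusted at p under 0.05 it gave 19 cytoskeleton genes lower and 8 higher (12.3% and 17.3% of all genes). The median of all genes moved by at most 0.023 on the log2 scale.

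Replicate numbers did not pair the arrays (correlation of deviations -0.14), and nothing in the labels says that they do. With the replicate number as a block, 22 cytoskeleton genes were lower and 4 higher (7.6% and 13.0% of all genes). With the numbers crossed, a fit chosen after the data were seen, 25 were lower and 5 higher (9.01% and 14.7% of all genes).

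Values that changed sign all belonged to genes that had not passed. *Cfl1* was at 0.020 with the mean of all probe sets and 0.088 by its probe set of smallest p, and by that choice *Arpc5l* was at 0.038, *Coro1c* at 0.039 and *Gsn* at 0.12. With an array left out, *Tmsb4x* ran from -0.045 to 0.0020, *Arpc5l* from -0.084 to 0.049, *Coro1b* from -0.032 to 0.019, *Coro1c* from -0.091 to 0.029, and *Myo1g* from -0.017 to 0.081. The cause was not tested for any of these, and changes in probe sets near the array median are not resolved.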

Other observations

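Some close relatives among the actin genes had unlike values, while others, such as *Actb* and *Actg1* or *Actn1* and *Actn4*, were both lower. The pairs were picked after their values were seen, and the difference between the genes of a pair was not tested. Profilin genes differed, with *Pfn1* at a log2 fold change of -0.22 and *Pfn2* at 0.31 (217.7 and 219.7 on the Rictor-null and 185 and 163 on the WT arrays). Of the depolymerizing factors, *Cfl1* was at -0.05 and did not pass, while *Dstn*, which encodes destrin, was higher at 273 and 307 against 215 and 221. The formin gene *Diaph1* was lower at -0.41, while *Diaph3* was higher at 0.40, although its mean intensity lay below the array median. Among coronins *Coro2b* was lower at -1.19 and *Coro2a* higher at 0.54, and *Coro7*, whose product works at the Golgi, was lower at -0.24. *Iqgap2*, a scaffold gene, was higher at 671 and 656 against 512 and 496, while its relative *Iqgap1* was at 1670.1 and 1660 against 1659 and 1650 and did not pass. The capping protein gene *Capg* was higher at 277 and 255 against 201 and 192.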
